A study of Homo sapiens with 2 samples.

Results

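These regions are IRF1 binding summits that lay on a transcription start site (TSS) in retinoic acid treated NB4 cells. A summit is the single base at which the authors' peak caller placed the top of a peak. The members were the summits whose distance to the nearest TSS, as deposited, was at most 100 bp in either direction, without a dense block of summits on chromosome 21 below position 10000000. This rule gave 207 TSS summits at 205 genes on 22 chromosomes, out of 1986 summits in the list. They made up 11.2% (exact 95% interval 9.81 to 12.7) of the 1846 summits outside the block. The block held 140 summits, and 10 of these within 100 bp of a TSS were left out by the rule. The distance chose the members and is therefore given below only as a description.

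IRF1 was profiled by ChIP-seq, in which DNA crosslinked to a protein is recovered with an antibody and sequenced, in NB4, an established line of acute promyelocytic leukemia that carries the PML-RARA fusion. One group received the solvent DMSO and the other all-trans retinoic acid (ATRA), which differentiates these leukemic cells, each for 4 hours. Each group was 1 library of the same line, so there was no replicate and no spread between cultures. The list analysed here carries the name of the ATRA library, and no values of the DMSO library were used, so nothing below compares treated with untreated cells. The antibody, the background of the peak calling and its threshold were not given in the sources used here. All intervals cover counting error only, and a summit is not a replicate of a condition.

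IRF1 is a transcription factor of the interferon regulatory factor family that is induced by interferons and by retinoic acid. Its DNA binding domain contacts a GAAA block, and adjacent blocks form the interferon-stimulated response element, which lies close to the start of many antiviral and antigen presentation genes. IRF1 is known for inducing the genes that cut, transport and load peptides for MHC class I, and genes of cell death and growth arrest.

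The 7 highest TSS summits with a tandem IRF motif in their promoter window are shown first, because the rest of the account turns on that motif. Sequences are those of RefSeq promoter windows (GRCh38.p14), read 5′ to 3′ on the strand of the gene, with up to 40 bases on either side of the summit and fewer where the window ends. Capitals mark matches to the tandem motif GAAANNGAAA, which is 2 GAAA blocks separated by 2 bases, and a match on the other strand appears as TTTC blocks.
PSME1, chr14:24136151-24136231, plus strand: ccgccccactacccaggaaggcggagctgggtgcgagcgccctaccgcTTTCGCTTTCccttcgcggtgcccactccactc
TAP2, chr6:32838734-32838814, minus strand: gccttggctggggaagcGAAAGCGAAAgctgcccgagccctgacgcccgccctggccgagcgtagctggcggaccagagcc
PSMG4, chr6:3258893-3258973, plus strand: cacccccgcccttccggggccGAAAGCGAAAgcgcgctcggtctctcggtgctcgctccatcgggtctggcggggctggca
ISG15, chr1:1013366-1013446, plus strand: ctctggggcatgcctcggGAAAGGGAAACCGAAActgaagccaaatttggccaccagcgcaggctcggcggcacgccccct
PARP9, chr3:122564312-122564392, minus strand: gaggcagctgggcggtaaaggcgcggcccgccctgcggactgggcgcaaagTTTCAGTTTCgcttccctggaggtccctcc
PSMB8, chr6:32844015-32844095, minus strand: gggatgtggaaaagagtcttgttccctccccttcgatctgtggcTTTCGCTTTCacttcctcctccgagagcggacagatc
OGFR, chr20:62804775-62804855, plus strand: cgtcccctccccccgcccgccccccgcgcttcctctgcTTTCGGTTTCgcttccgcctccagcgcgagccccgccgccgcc
These 7 summits had scores from 216 to 321, and they were picked for having a tandem match. APOL2 and ZFAS1, which have no window here, and IL15RA, shown next, fall within the same range of scores. In ISG15 the capitals run over 3 consecutive GAAA blocks. The genes encode a proteasome activator subunit (PSME1), a peptide transporter subunit (TAP2), a proteasome assembly chaperone (PSMG4), a ubiquitin-like modifier (ISG15), an ADP-ribosyltransferase family member (PARP9), an immunoproteasome protease (PSMB8) and the opioid growth factor receptor (OGFR).

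The next set shows high-scoring summits whose window holds only the shorter core AANNGAAA, in capitals. Every tandem match also holds a core match, so the core is the looser of the 2 patterns.
IL15RA, chr10:5977562-5977637, minus strand: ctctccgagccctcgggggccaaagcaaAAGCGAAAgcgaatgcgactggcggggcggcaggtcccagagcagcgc
RIGI, chr9:32526316-32526396, minus strand: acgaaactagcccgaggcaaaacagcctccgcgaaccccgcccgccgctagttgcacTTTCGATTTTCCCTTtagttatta
CMPK2, chr2:6865790-6865870, minus strand: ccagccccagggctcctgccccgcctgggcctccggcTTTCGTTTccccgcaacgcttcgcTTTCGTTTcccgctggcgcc
IL15RA is the receptor chain that presents interleukin 15, RIGI a cytosolic sensor of viral RNA, and CMPK2 a mitochondrial nucleotide kinase that is transcribed next to RSAD2. CMPK2 has core matches at more than 1 place in the stretch shown.

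The tandem pattern was not limited to interferon genes. The following summits lay at genes outside the lists of interferon and antigen presentation genes used below.
FMR1, chrX:147911883-147911963, plus strand: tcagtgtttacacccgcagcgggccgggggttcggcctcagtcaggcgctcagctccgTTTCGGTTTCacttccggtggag
UBFD1, chr16:23557532-23557612, plus strand: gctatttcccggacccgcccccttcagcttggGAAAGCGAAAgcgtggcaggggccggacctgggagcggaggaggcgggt
TFAP2A-AS1, chr6:10412287-10412367, plus strand: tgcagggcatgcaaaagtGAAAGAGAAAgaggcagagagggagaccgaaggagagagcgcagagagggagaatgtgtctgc
GALT, chr9:34646625-34646705, plus strand: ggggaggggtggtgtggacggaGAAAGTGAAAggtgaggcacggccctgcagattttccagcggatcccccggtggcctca
FMR1 encodes an RNA binding protein of synapses, UBFD1 a protein with a ubiquitin domain, TFAP2A-AS1 an RNA antisense to the transcription factor gene TFAP2A, and GALT an enzyme of galactose breakdown. Their scores were 86.0, 98.8, 138 and 57.3.

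A complete tandem match was also present at some lower scores.
TRIM21, chr11:4393653-4393718, minus strand: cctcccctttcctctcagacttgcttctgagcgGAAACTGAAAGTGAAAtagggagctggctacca
B2M, chr15:44711357-44711437, plus strand: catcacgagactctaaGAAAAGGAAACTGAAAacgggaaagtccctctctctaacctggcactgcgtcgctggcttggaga
TLR3, chr4:186069132-186069205, plus strand: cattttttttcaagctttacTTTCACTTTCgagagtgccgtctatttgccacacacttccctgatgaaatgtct
TRIM21, an intracellular antibody receptor, scored 90.0, B2M, the light chain of MHC class I, 49.8, and TLR3, the endosomal receptor for double-stranded RNA, 14.4. TRIM21 and B2M both hold a run of 3 GAAA blocks, so the number of blocks did not by itself order the scores.

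Summits with neither pattern are represented by the highest of them, WBP4, and by a low one at a ribosomal protein gene.
WBP4, chr13:41061488-41061558, plus strand: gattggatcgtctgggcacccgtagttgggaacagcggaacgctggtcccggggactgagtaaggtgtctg
RPL18, chr19:48619336-48619416, minus strand: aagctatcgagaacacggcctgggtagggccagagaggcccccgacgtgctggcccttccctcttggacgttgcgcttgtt
WBP4, a spliceosome component, had a score of 126, which was the highest among TSS summits with no match in the window. RPL18, a protein of the large ribosomal subunit, had 12.2.

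To count the motifs, the windows that run from 250 bases before a RefSeq start to 50 bases from it were searched on both strands. The gene of 167 of the 207 summits (80.7%) was in the promoter table, and 147 summits (71.0%) lay inside a window of their own gene. The tandem motif was present in 59 of these 147 windows (40.1%, exact interval 32.1 to 48.5), against 3.57% of all 34943 distinct windows of the table. The core was present in 98 windows (66.7%, 58.4 to 74.2), against 22.9% of all windows. A run of 3 blocks, GAAANNGAAANNGAAA, was found in 8 windows (5.44%) against 0.155% of all, and the ETS-IRF composite GGAANNGAAA in 26 (17.7%) against 2.82%. The composite can overlap the tandem motif, since both end in the same letters. These counts describe letters in a window and do not show that a match is bound.

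Motif share and score moved together. Of the 67 windows whose summit scored at or above the median of the TSS summits, 45 held the tandem motif (67.2%, 54.6 to 78.2), against 14 of the 80 below it (17.5%, 9.91 to 27.6). Across tertiles of score, with limits at 20.3 and 49.9, the tandem share was 14.04%, 46.5% and 66.0%, and the core share was 40.4%, 72.1% and 93.6%. Summits with a tandem match had a median score of 54.3 (43.0 to 90.0), those with the core only 25.4 (18.7 to 50.1) and those with neither 17.2 (15.0 to 18.9). Among the 30 highest TSS summits, 19 had a window, of which 14 held the tandem motif, 4 the core only and 1, that of WBP4, neither. Among the 30 lowest, 25 had a window and 16 of these held neither.

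**Figure D1:**
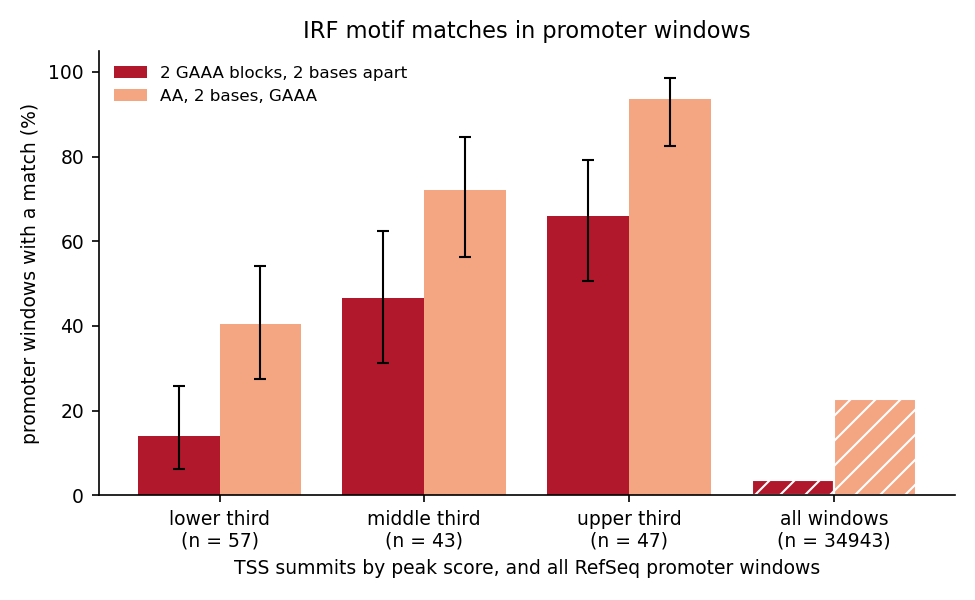
Share of promoter windows with the tandem motif (red) and with the core (orange) for TSS summits in the lower, middle and upper tertile of peak score, with exact 95% intervals, and for all RefSeq promoter windows (hatched). The tandem share goes from 14.04% in the lower tertile to 66.0% in the upper one, and the hatched bars stand at 3.57% and 22.9%.

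The 2 bases between the GAAA blocks were not evenly spread. Of the 78 tandem matches in the 59 windows, 57 (73.1%, exact interval 61.8 to 82.5) had C or T just before the second GAAA, against 29.4% of the 1352 matches in all windows. GT was the most frequent pair with 17 matches (21.8%, against 5.40% of all matches), followed by GC with 11 (14.1% against 2.66%), CT with 10 and CC with 9. AA, the most frequent pair over all windows at 16.5%, made up 3 of the 78. The summits with GC between the blocks had a median score of 127, the highest among pairs with at least 4 matches. Of the 11, 6 were at PSME1, TAP2, PSMG4, PSMB8, PSMB10 and PSME2, classed under peptide supply for MHC class I, and these are the 6 highest. The other 5 were at UBFD1, FAM111A-DT, CYP4V2, PARP14 and DDO, with scores from 18.5 to 98.8. The peptide supply class was assigned after the names were seen. PSMG4 is in it but not in the list of MHC class I genes used below. Summits with GT had a median of 43.0. Matches in 1 window share a summit, so these medians count some summits more than once.

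Tandem matches lay close to the summit and on 1 side of it. The centre of the nearest match was a median of 15.5 bp from the summit, and in 45 of the 59 windows (76.3%, 63.4 to 86.4) it was within 25 bp, where 16.9% of the possible positions in these windows fall. It was within 50 bp in 53 windows, or 89.8%, against 33.0% of positions. In 15 of the 59 windows the nearest match was picked from more than 1, which favours closeness. Of all 78 matches, 52 (66.7%, 55.1 to 76.9) were within 25 bp and 64 (82.1%, 71.7 to 89.8) within 50 bp. Read along the strand that holds GAAA, the summit was on the 3′ side of the nearest match in 49 of the 53 windows (92.5%, 81.8 to 97.9), at a median of 13.5 bp from its centre. The same side was seen for matches on either strand of the genome, 19 of 20 on the plus strand and 30 of 33 on the minus strand. It was likewise seen in 28 of 29 matches on the strand of the gene and 21 of 24 on the opposite one. The sequences printed above show this, with GAAA to the left of the centre in TAP2, PSMG4 and ISG15 and TTTC to the right of it in PSME1, PARP9 and FMR1. The 4 exceptions among the 53 windows were EIF2AK2, HERC5, CCNT2-AS1 and TLR3. Over all 59 windows the summit was on the 3′ side in 53 (89.8%, 79.2 to 96.2), and CD274 and PIGBOS1 were further exceptions. The strand itself was mixed, with 41 of 78 matches (52.6%, 40.9 to 64.0) on the strand of the gene.

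**Figure D2:**
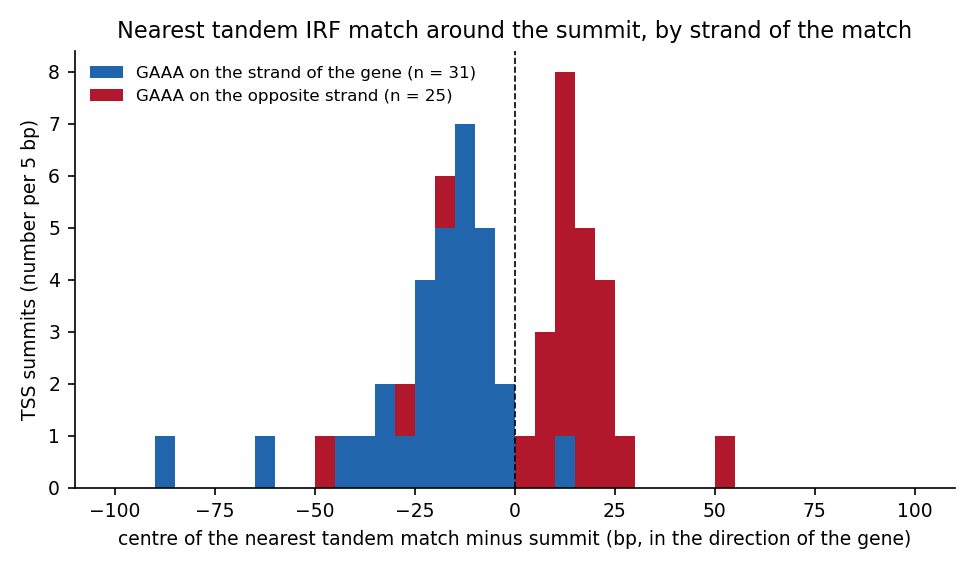
Centre of the nearest tandem match minus the summit, in bp along the direction of the gene, for the 56 TSS summits with a match within 100 bp, stacked by the strand that holds GAAA. Matches on the strand of the gene (blue, 31) lie mostly to the left of the dashed line at the summit and those on the opposite strand (red, 25) mostly to the right.

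Other promoter motifs were searched in the same windows. The GC box GGGCGG was found in 98 windows (66.7%) against 44.9% of all, with 56.7% (44.0 to 68.8) at or above the median score and 75% (64.1 to 84.0) below it, intervals that overlap. The ETS core CCGGAAG was in 22 windows (15.0% against 10.2%), the YY1 core ATGGCGG in 14 (9.52% against 5.55%) and the CCAAT box, searched as CCAAT, in 53 (36.1% against 34.6%). The STAT palindrome TTCNNNGAA, a pattern of the factors that act with interferon receptors, was in 13 windows (8.84%, 4.79 to 14.6), and the share in all windows, 7.66%, lies inside that interval. TATAAA was in 8 windows (5.44% against 11.6%) and the cyclic AMP element TGACGTCA in 4. The direct repeat of retinoic acid receptors with 5 bases between its arms was in 0 of the 147 windows (exact upper bound 2.48%) and in 0.727% of all. No match says only that these letters are not in the window.

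The windows were rich in CpG. Their median GC content was 60.3% against 58.7% over all windows, and the median ratio of observed to expected CpG was 0.767 against 0.577. With a GC content of at least 50% and a ratio of at least 0.6, 104 of 147 windows (70.7%, 62.7 to 78.0) were CpG-rich, against 46.8% of all. The median score was 21.9 (18.9 to 31.5) in CpG-rich windows and 41.0 (28.0 to 55.0) in the other 43, and these intervals overlap. The tandem motif was in 34 of the 104 CpG-rich windows (32.7%; 1.99% of all CpG-rich windows) and in 25 of the 43 others (58.1%; 4.96% of all other windows). Base content thus differed along with the motif, and its part in the score was not tested.

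The peak score is the authors' own value on a scale that is not stated, so it ranks summits within this list and has no physical unit. TSS summits ranged from 8.30 to 321, with a median of 32.2 (26.4 to 40.1) and quartiles of 17.7 and 74.7. The 293 flanking summits, over 100 and up to 1000 bp from a TSS, had a median of 26.9 (23.9 to 29.2), and all 1639 summits outside the block that were not at a TSS had 25.3 (24.6 to 26.4). The difference lay in the upper part of the range. Of the TSS summits, 77 (37.2%, 30.6 to 44.2) were in the upper quartile of scores, at or above 45.6, against 25.3% (20.4 to 30.6) of flanking summits and 23.5% (21.5 to 25.6) of all others. A score of at least 100 was reached by 37 TSS summits (17.9%, 12.9 to 23.8), by 27 flanking summits (9.22%, 6.16 to 13.1) and by 7.32% (6.11 to 8.69) of all others. A score of at least 200 was reached by 29 summits, of which 10 were TSS summits (4.83%, 2.34 to 8.70) and 9 were flanking ones (3.07%, 1.41 to 5.75). For these cuts the intervals of TSS and flanking summits overlap. Several flanking summits had the same nearest gene, RNU2-1, at 314 to 394 bp with scores from 22.3 to 46.9. Each was counted separately, and how reads matching several places were handled is not stated.

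Within 100 bp the score did not follow the distance. The median was 29.1 at up to 25 bp (78 summits), 37.9 at 26 to 50 bp (59), 31.0 at 51 to 75 bp (38) and 33.4 at 76 to 100 bp (32), and across the 207 summits Spearman's rho of score and absolute distance was -0.0159, a description over summits of 1 library. By the authors' distances 113 summits (54.6%, 47.5 to 61.5) were upstream and 94 downstream, with a median of -8 bp. Upstream summits had a median score of 27.0 (21.01 to 34.7) and downstream summits 39.4 (31.5 to 50.1), and these intervals overlap. Measured from the nearest RefSeq start of the same gene, 132 of 167 summits (79.0%, 72.1 to 84.9) were upstream and the median was -35 bp, so the side depends on which start is used. Of the 167, 129 (77.2%, 70.1 to 83.4) were within 100 bp of such a start. The others included ADAR (617 bp), ZFAS1 (-541 bp), BATF2 (-6741 bp) and IL12RB1 (11921 bp). The table of RefSeq starts is not complete, so a start can be missing from it. PSME1, for example, was 33 bp downstream by the authors' TSS and 3 bp upstream of the RefSeq start.

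**Figure D3:**
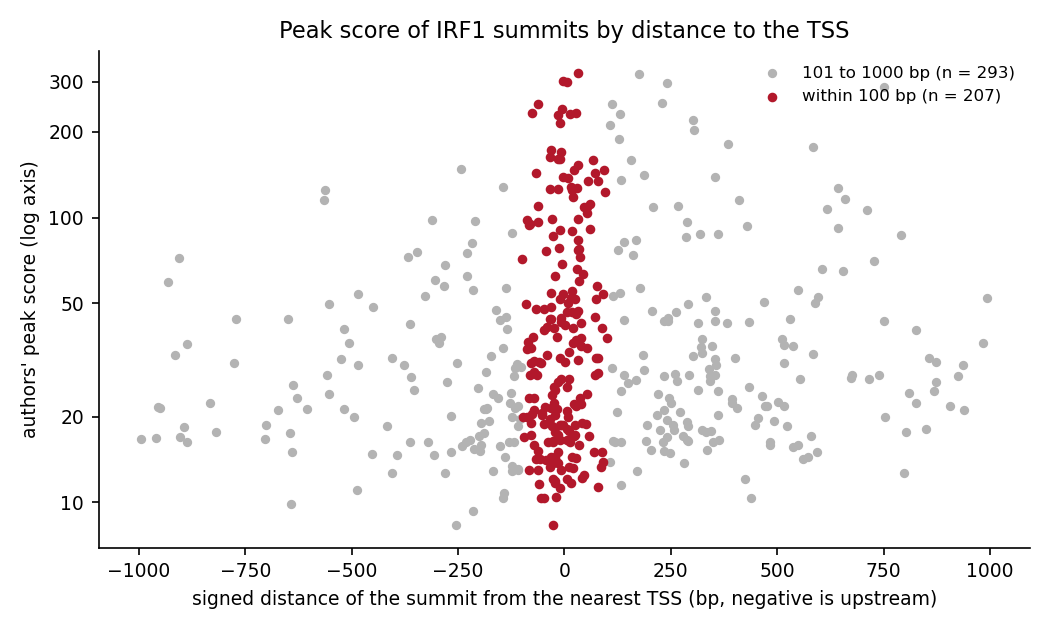
Peak score on a log axis against signed distance to the nearest TSS in bp for the 207 TSS summits (red) and the 293 flanking summits (grey). Red points range from 8.30 to 321, with high and low scores on both sides of the TSS.

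At the edge of the rule, AGBL5 at -97 bp had a score of 19.98, the non-coding ANXA2R-AS1 at -99 bp 71.4 and SMARCA5, a chromatin remodeler, at 100 bp 37.6. Just outside it were HAX1 at -102 bp (30.0), PDXK at -104 bp (19.6), a second DCTN4 summit at 106 bp (13.8), USP18, which strips ISG15 off proteins, at 107 bp (212), and PRRC2C at -108 bp (21.7).

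Protein-coding genes were the nearest gene of 188 TSS summits (90.8%, 86.0 to 94.4), against 84.0% of flanking summits and 76.8% of all others. Of the rest, 16 were at non-coding RNA genes and 3 at pseudogenes. All 207 carried the promoter class in the authors' annotation, which follows from their position, and in 11 of 206 the annotated transcript belonged to another gene than the nearest one. Examples are RNF31 for the PSME2 summit, ARID4B for GGPS1 and PHTF2 for TMEM60.

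Genes of interferon action and antigen presentation were read from 19 lists. Over all 19970 protein-coding genes, 186 (0.931%) were the nearest gene of a TSS summit, and the members of 8 interferon and antigen presentation lists had one in 55 of 182 cases (30.2%, 23.6 to 37.5). The 8 were antiviral effectors, MHC class I peptide presentation, ISG15 and ubiquitin ligases, ADP-ribosyltransferases, nucleic acid sensing, interferon signalling, nuclear body proteins and immunity GTPases. Antigen presentation here means that of MHC class I. The other lists together had 15 of 411 (3.65%, 2.06 to 5.95), and they include the MHC class II list with 0 of 14. These lists were drawn up with earlier results of the data known, so the shares describe the list and do not test it. The 56 summits at the 55 genes had a median score of 86.6 (49.8 to 109), against 24.8 (20.6 to 32.1) for the other 151. They made up 35 of the 69 TSS summits in the upper tertile of scores and 8 of the 69 in the lower. Of their 38 windows, 25 held the tandem motif (65.8%, 48.6 to 80.4) and 37 the core, whereas among the 109 windows of other genes 34 held the tandem motif (31.2%, 22.7 to 40.8) and 61 the core.

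**Figure D4:**
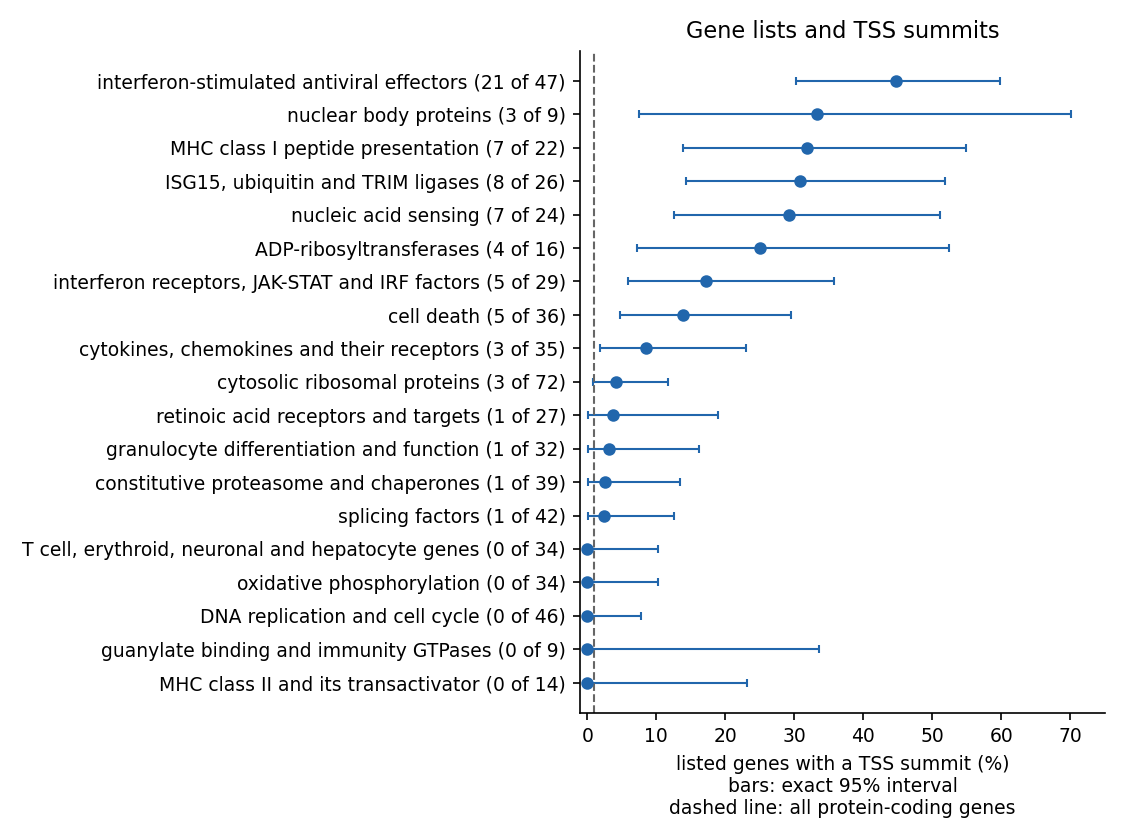
Percent of the genes of each list that were the nearest gene of a TSS summit, with exact 95% intervals and the share over all protein-coding genes (0.931%) as a dashed line. Antiviral effectors stand at 21 of 47 genes, and 5 lists stand at 0.

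Peptide supply for MHC class I had the highest median score of the 15 functional classes, 188 over 8 summits, all in the upper quartile of the list. PSME1 (321) and PSME2 (127) form the interferon-inducible proteasome activator, and PSMB8 (229) and PSMB10 (147) are proteases of the immunoproteasome. PSMG4 (299) helps assemble proteasomes, and it was the one member with a TSS summit among 39 genes of the constitutive proteasome and its chaperones. TAP2 (301) carries peptides into the endoplasmic reticulum, TAPBPL (147) edits them on the heavy chain, and B2M (49.8) is the light chain. Of the 22 listed genes of this pathway, which leave out PSMG4, 7 had a TSS summit (31.8%, 13.9 to 54.9), with a median score of 147. TAP1, PSMB9, TAPBP, ERAP1, NLRC5 and the heavy chain genes were not the nearest gene of one. Some of them were instead the nearest gene of a flanking summit, beyond the 100 bp limit. These were TAP1 at 131 bp (231), ERAP1 at 240 bp (297), TAPBP at 303 bp (221) and PSMB9 at 410 bp (115). HLA-C had flanking summits at -123 bp (19.98) and 674 bp (27.4). The 14 listed genes of MHC class II had 0 (exact upper bound 23.2%).

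Antiviral effectors were the class with the most summits, 25 at 24 genes, with a median score of 90.5 (46.7 to 109) and a range from 16.2 to 233. Of 47 listed effectors 21 had a TSS summit (44.7%, 30.2 to 59.9). Apolipoprotein L genes, of which APOL1 encodes the trypanosome lytic factor, scored 233 (APOL2), 161 (APOL1), 139 (APOL6) and 123 (APOL3). IFI35 had 135, the helicase HELZ2 128, the helicase-like DDX60 125 and its neighbour DDX60L 55.0. MX1, a GTPase that blocks viral nucleocapsids, and APOBEC3G, a cytidine deaminase active on retroviral DNA, both had 109, and EIF2AK2, the kinase that stops translation on double-stranded RNA, had 104. The oligoadenylate synthetase genes OAS3 and OAS1, whose product activates RNase L, had 97.8 and 23.2, and the related OASL had 19.9. The IFIT genes, which encode proteins that bind foreign RNA ends, had 76.5 (IFIT1), 51.8 and 16.2 (IFIT3) and 25.4 (IFIT2). RSAD2, IFI44L, MX2 and the IFITM genes were among the effectors without a TSS summit of their own.

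Sensors of nucleic acids and microbes had 6 summits with a median of 93.0. The RNA helicase sensor RIGI had 173, its relatives DHX58 126 and IFIH1 59.8, and ADAR, which edits double-stranded RNA, 159.3. NOD1, a sensor of bacterial cell wall, had 18.9 and TLR3 14.4. The RNA helicases thus stood above the receptors of other classes among these 6. Of the ADP-ribosyltransferases 4 of 16 had a TSS summit, with 240.0 for PARP9, 161 for PARP10, 46.5 for PARP14 and 21.3 for PARP8. PARP9 acts in a complex with the ubiquitin ligase DTX3L, with which it shares its promoter.

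The ISG15 and ubiquitin class held 15 summits with a median of 30.7 and a range from 10.4 to 251. ISG15 (251) is conjugated to proteins by an enzyme chain in which UBA7 (68.8) is the activating enzyme, TRIM25 (27.0) a ligase and HERC5 (10.4) the main ligase. The members of that chain therefore lay at both ends of the range. TRIM21 had 90.0, TRIM56, a regulator of cytosolic nucleic acid sensing, 83.2, TRIM14 41.0, TRIM44 31.2 and TRIM34 30.7. UBFD1 had 98.8, while the TSS summits of UBE3B, FEM1B, UBE2D3 and WSB2 were all below 20. WSB2 and UBE2D3 were also the nearest gene of higher flanking summits, at 353 bp (139) and 162 bp (74.0).

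Regulators of interferon signalling had 5 TSS summits among 29 listed genes (17.2%, 5.85 to 35.8). Among them the factors IRF7 and IRF5 had 45.7 and 44.0, BATF2 37.0 and the receptor kinase TYK2 13.3. The interferon receptor genes, IRF1, IRF2, IRF8, IRF9, STAT2 and SOCS1 were not the nearest gene of a TSS summit. SOCS1, STAT2 and IRF2 had flanking summits, the highest at -144 bp (128), -228 bp (74.8) and -230 bp (62.3). Nuclear body proteins had SP110 (91.3), SP140L (50.1) and SP100 (16.3), 3 of 9 listed genes. The guanylate binding proteins and related GTPases had 0 of 9 (exact upper bound 33.6%).

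Cytokines, receptors and immune surface proteins had 14 summits with a median of 38.0, in a class assigned after the names were seen. This class also holds NCF1, a subunit of the phagocyte oxidase, and GIMAP2, a GTPase, which its name does not cover. Of the 35 listed cytokines, chemokines and receptors 3 had a TSS summit (8.57%, 1.80 to 23.1). IL15RA had 232, FLT3LG, the ligand of the FLT3 receptor of blood progenitors, 169.6, and PLXNC1, a semaphorin receptor, 135. IL12RB1, a chain of the interleukin 12 receptor, had 54.1, TNFSF13B, a survival factor of B cells, 34.9, and CD274, the ligand of PD-1, 22.1. BTN3A3, BTN3A2 and BTN3A1, butyrophilins that activate gamma delta T cells, had 38.2, 31.2 and 23.2. Cell death genes had GSDMD (73.0), the pore former of pyroptosis, CASP1 (52.3) and CASP4 (18.7), which cleave it, the initiator CASP8 (48.6) and BCL2L11 (25.4), which encodes the BH3-only protein BIM. These were 5 of 36 listed genes (13.9%, 4.67 to 29.5).

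Lists for the differentiation that ATRA drives had shares whose intervals include the 0.931% of all protein-coding genes. NCF1, a subunit of the phagocyte oxidase, was 1 of 32 granulocyte genes (3.13%, 0.0791 to 16.2), with a score of 41.0. PLAAT4, listed by the authors as RARRES3, was 1 of 27 retinoic acid genes (3.70%, 0.0937 to 19.0), with 47.1. PLAAT4 is also known as an interferon-induced gene. The pseudogenes NCF1C (47.7) and NCF1B (36.6) are near-identical to NCF1, and how reads matching several copies were placed is not stated, so these 3 summits are uncertain. Replication and cell cycle genes had 0 of 46 (exact upper bound 7.71%), oxidative phosphorylation 0 of 34 and genes of other lineages 0 of 34 (10.3% each).

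**Figure D5:**
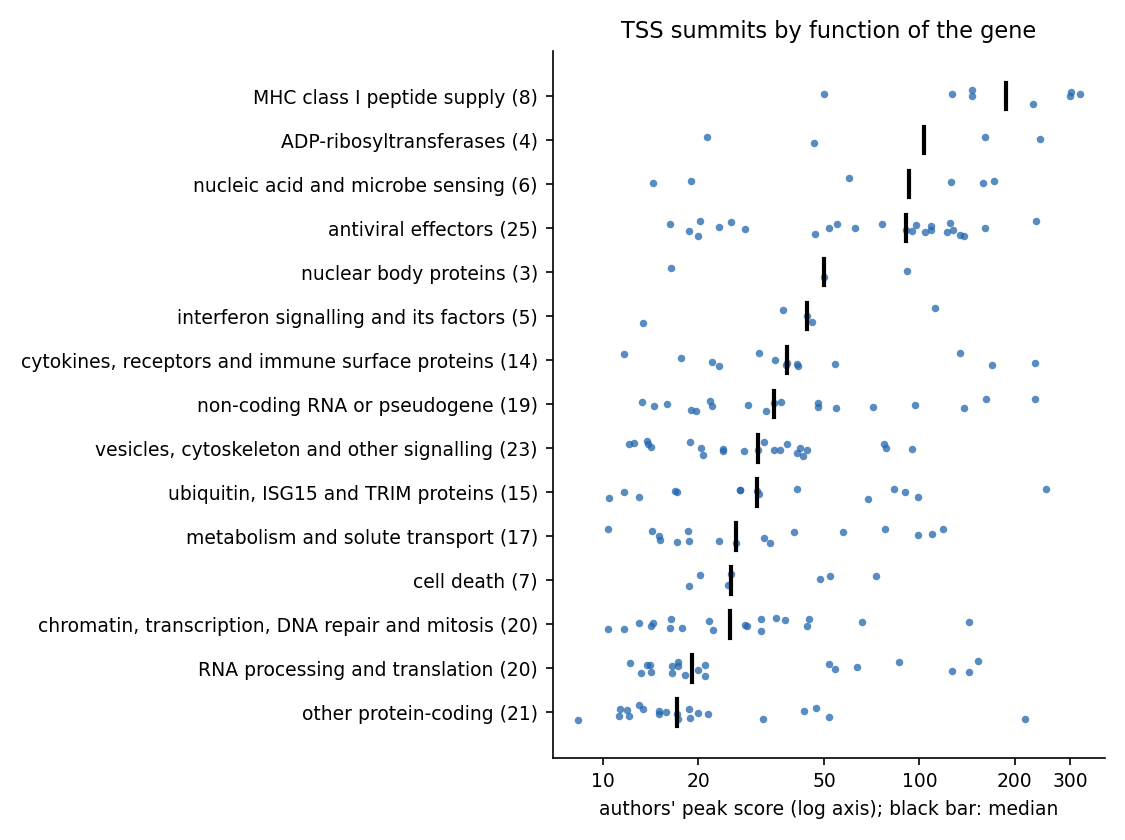
Peak score on a log axis of each TSS summit (points) by functional class of the nearest gene, with the number of summits in parentheses and the class median as a black bar. Medians fall from 188 for MHC class I peptide supply to 17.1 for other protein-coding genes, and points of the larger classes spread over much of the axis.

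The remaining summits lay at genes with general cellular roles, and each such class had a median below that of all TSS summits with a few high members. RNA processing and translation had 20 summits with a median of 19.1, in which LSM6, a subunit of protein rings that act in messenger RNA decay and splicing, had 153, RBM43 144, WBP4 126, FMR1 86.0 and the exonuclease XRN1 63.3. The ribosomal proteins RPL38 (21.01), RPL37 (14.2) and RPL18 (12.2) were at the lower end, 3 of 72 listed genes (4.17%, 0.868 to 11.7), and the splicing factor HNRNPL had 17.2. Chromatin, transcription, DNA repair and mitosis had 20 summits with a median of 25.2, led by USF1, a basic helix-loop-helix factor, with 144, and SMARCAL1, which remodels stalled replication forks, with 65.8. Metabolism and transport had 17 with a median of 26.4. DGLUCY (119) breaks down D-glutamate, SLC25A22 (110.0) carries glutamate into mitochondria, MGAT1 (98.9) builds N-glycans and GALT (57.3) handles galactose. Vesicle, cytoskeleton and signalling genes had 23 with a median of 30.8, led by the sorting nexin SNX5 (94.9).

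The 10 lowest TSS summits had scores from 8.30 to 11.9. They were at LINC02210-CRHR1, PHTF2, POFUT3, HERC5, ANKRD40, SELENOH, ZNF398, WSB2, GIMAP2 and LRRC59. HERC5 and GIMAP2, a GTPase of lymphocytes, are the immune genes among them. Each has a tandem match in its window, 47.5 bp and 27.5 bp from the summit.

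Non-coding genes had some of the strongest summits. ZFAS1, antisense to the RNA sensor gene ZNFX1, had 233, LINC02328 163, TFAP2A-AS1 138, FAM111A-DT 96.8, ANXA2R-AS1 71.4, CCNT2-AS1 54.3 and LINC01556 47.7. The median score was 30.7 (19.0 to 96.8) for the 16 summits at non-coding RNA genes and 31.8 (25.4 to 40.1) for the 188 at protein-coding ones. Long non-coding RNA was named in the gene description of 4.83% of TSS summits and 11.3% of all others, and microRNA of 0.483% and 4.64%. Some of these starts lie beside the start of a coding gene, and the nearest gene then depends on a few base pairs.

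Shared promoters were sought among the 167 summits whose gene was in the promoter table. In 40 (24.0%, 17.7 to 31.2) another gene started on the opposite strand within 1 kb upstream, a divergent pair, 9 overlapped head to head, 3 had a neighbour in the same direction and 115 (68.9%) had none. For protein-coding genes the divergent share was 23.4% (16.9 to 30.9, n = 154) against 18.5% of 22198 protein-coding starts in the table, a value inside the interval. The table is not complete, so pairs can be missed. The 40 summits lay at 38 distinct pairs, 24 with a protein-coding partner and 14 with a long non-coding RNA, whose starts were a median of 172 bp apart. For 13 of the 40 summits both RefSeq starts were within 100 bp. Divergent summits had a median score of 18.6 (17.1 to 49.8) against 33.8 (25.4 to 41.0) for single starts, with overlapping intervals. The tandem motif was in 14 of 36 divergent windows (38.9%, 23.1 to 56.5) and in 41 of 100 single ones (41%, 31.3 to 51.3). CpG-rich windows made up 33 of the 36 and 62 of the 100.

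Some of the highest divergent pairs join interferon genes that the nearest-gene rule counts once. PARP9 and DTX3L start 38 bp apart, and the summit (240.0) was 52 bp from the former and 14 bp from the latter. PSMB8 and PSMB8-AS1 start 39 bp apart (229), and PSME2 and RNF31, a subunit of the linear ubiquitin ligase, 265 bp apart (127). CMPK2 and RSAD2, which encodes the antiviral enzyme viperin, start 66 bp apart, and the summit (90.5) was 11 bp and 55 bp from them. Counting the partners DTX3L, RNF31 and RSAD2 as well raises the listed genes from 55 to 58. The PSME2 summit was 259 bp from the start of RNF31, however, so RNF31 does not meet the 100 bp limit itself. FAM111A-DT and FAM111A, a protease that restricts viral replication, start 48 bp apart with the summit (96.8) nearer to FAM111A. IFIH1 and GCA, a granulocyte calcium binding protein, start 79 bp apart (59.8), and B2M and PATL2 127 bp apart, with the B2M summit 7 bp from the start of PATL2.

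The other high-scoring pairs were more mixed in function. The summit of WBP4 (126) was 19 bp from its start and 142 bp from that of ELF1, an ETS factor, and that of TAPBPL (147) was 62 bp from its start, with CD27-AS1 starting 525 bp away. UBFD1 and EARS2, a mitochondrial tRNA synthetase, start 352 bp apart (98.8), and FMR1 and FMR1-AS1 102 bp apart (86.0). The summit assigned to SNX5 (94.9) was 279 bp from its RefSeq start and 55 bp from that of MGME1, a mitochondrial exonuclease. In all, 10 of the 167 summits were nearer to a partner's RefSeq start than to their own.

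Some TSS summits lay close together. With gaps of up to 100 kb, 31 of the 207 fell into 13 groups, which include ZNF668 alone and the pair TMEM60 and PHTF2 beside families of related genes. On chromosome 10 the IFIT genes held 4 summits between positions 89301956 and 89392502, with scores from 16.2 to 76.5. On chromosome 22 APOL3, APOL2 and APOL1 held 3 within 92221 bp, from 123 to 233, and APOBEC3F (62.5) and APOBEC3G (109) lay 36411 bp apart. On chromosome 11 CASP4, CASP1 and CARD16 held 3 (18.7 to 52.3), and on chromosome 6 BTN3A2, BTN3A1 and BTN3A3 held 3 (23.2 to 38.2). The summits of TAP2 and PSMB8 were 5281 bp apart and those of PSME1 and PSME2 10425 bp. SAMD9 (28.0) and SAMD9L (18.7), growth-restraining antiviral genes, lay 30308 bp apart, OAS1 and OAS3 31374 bp. Many neighbours in such families arose by gene duplication, and where reads match several copies their placement is not stated.

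The IFIT and BTN3A summits are shown to compare such neighbours, with capitals for the tandem motif in the IFIT genes and for the core in the BTN3A genes.
IFIT1, chr10:89392462-89392542, plus strand: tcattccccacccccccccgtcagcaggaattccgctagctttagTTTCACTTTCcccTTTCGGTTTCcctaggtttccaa
IFIT3, chr10:89332429-89332509, plus strand: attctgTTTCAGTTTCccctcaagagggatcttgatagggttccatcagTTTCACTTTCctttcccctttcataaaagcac
IFIT3, chr10:89327792-89327872, plus strand: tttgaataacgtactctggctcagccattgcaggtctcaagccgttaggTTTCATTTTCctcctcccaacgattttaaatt
BTN3A3, chr6:26440359-26440439, plus strand: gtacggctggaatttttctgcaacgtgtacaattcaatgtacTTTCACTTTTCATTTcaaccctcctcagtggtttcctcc
BTN3A2, chr6:26365059-26365139, plus strand: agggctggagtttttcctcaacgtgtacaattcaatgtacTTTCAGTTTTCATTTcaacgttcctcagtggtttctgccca
The 3 IFIT summits shown each have 2 tandem matches in their window, and the IFIT2 summit has no window here. The second match of the weaker IFIT3 summit lies 47.5 bp from it, just outside the stretch shown. The BTN3A3 window also holds a tandem match, 144.5 bp from the summit and outside the stretch shown, so the counts above class it as tandem. The 2 IFIT3 summits lay at different annotated starts, as did those of ZNF668 (35.3 and 17.8), a zinc finger gene, and these were the 2 genes with more than 1 TSS summit.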

How the data were processed

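The authors deposited 1 list of IRF1 summits for the ATRA library. The submitters' processing notes name Bowtie2 2.2.9 and MACS 1.4.2 with build hg38, and per the file headers HOMER's annotatePeaks.pl assigned the annotation on hg38. The deposited peak score is the authors' value, its scale is not stated, and the distance to the TSS, gene and classes are HOMER's. Filters, duplicate handling and the read depth behind a summit were not given in the sources used here.

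Members were selected on the distance column and described by counts, medians with order-statistic intervals and exact (Clopper-Pearson) 95% intervals. No test was run, since there was 1 library and summits are not replicates. Genes were matched by Entrez identifier to RefSeq tables of GRCh38.p14, the NCBI name of hg38 with patches, and all 207 were found in the gene table. The promoter table held 34943 distinct windows of 300 bases. Motifs were counted on both strands, overlaps included, and the search was tested on simulated windows with planted motifs. Background shares include the members' own windows.

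Members, lists and motifs were chosen with earlier results of these data known, and functional classes were assigned after the gene names were seen. The text names the genes of the 30 highest TSS summits, up to 6 top members of each list or description class, the 10 lowest, the 10 highest divergent pairs and non-coding genes, genes with more than 1 TSS summit, summits at the edge of the rule, and other genes chosen after their values were seen. Some genes that this rule takes are not reported here. The count of the 2 bases between GAAA blocks and the side of the motif were added after the motif counts were known. The 24 alternatives covered distance limits, merging, the chromosome 21 block, score and start definitions, pairing reach and motif stringency. Computations used Python 3.11.15, numpy 2.4.6, pandas 2.3.3 and scipy 1.17.1.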

Additional observations from a re-analysis of the deposited data

How the results depend on the processing

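In 18 of 24 alternatives over 10 results, a count stayed within 1.5 times its value and a share or median inside its 95% interval. Among these, the listed interferon and antigen presentation genes went from 55 to 38 with a distance limit of 50 bp and to 66 with 200 bp. With the distance limited to 50 bp, 137 summits qualified in place of 207. The upstream share was 47.1% for summits at or above the median score and 79.0% when measured from RefSeq starts, against 54.6%. The divergent share was 16.8% with starts within 300 bp, against 24.0% within 1 kb. The motif share was 66.7% for the core and 67.2% for summits at or above the median score, against 40.1%. The promoter class, at 100%, and the CpG island class, at 0%, are fixed by how HOMER orders its classes and carry no information here. No paired analysis was possible because there was 1 library per group, so no replicate could be left out either. The depth behind a score is unknown, and genes outside the promoter table have no motif or pairing value.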
